A study of Mus musculus with 2 samples.

Results

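The vascular endothelial growth factor (VEGF) and angiopoietin genes were followed through the cells of the mouse dorsal root ganglion (DRG). They are 10 genes, the 5 ligands *Vegfa*, *Vegfb*, *Vegfc*, *Angpt1* and *Angpt2* and the 5 receptors *Flt1*, *Kdr*, *Nrp1*, *Tek* and *Tie1*, chosen by gene symbol from the 32285 genes that were counted, and each of the 10 was found in both samples and passed the filter on low counts. The study collected L4 and L5 DRGs of wild-type C57BL/6 female mice at 3 months of age, without injury or treatment, dissociated them, sorted live cells, and captured single cells in droplets (10x Chromium, 3′ chemistry). There are 2 samples, replicates 1 and 2, of this 1 condition, named biological replicates by the study, with no statement of the number of mice behind a sample. Comparisons were therefore made between cell types, each of which was measured in both samples.

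VEGF-A signals mainly through the receptor tyrosine kinase VEGFR2, encoded by *Kdr*, and drives growth, survival and permeability of blood vessels. VEGFR1, encoded by *Flt1*, binds VEGF-A and VEGF-B tightly but signals weakly and also exists as a soluble trap, and neuropilin 1 (*Nrp1*) is a co-receptor that also binds class 3 semaphorins in axon guidance. VEGF-C acts through VEGFR3 and VEGFR2 and is known for the growth of lymphatic vessels. Angiopoietin 1, a product of cells around the vessel, activates the endothelial receptor TIE2 (*Tek*) and keeps vessels quiet and tight, angiopoietin 2 can oppose it, and TIE1 is a partner of TIE2 with no classical ligand of its own. In the DRG these vessels are known to be dense around neuronal cell bodies, and each cell body is wrapped by satellite glial cells (SGCs).

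The samples held 119101743 and 128668771 unique molecular identifiers (UMIs, 1 per captured transcript), and 16390 cells were retained, 8132 and 8258 per replicate. Cells were clustered without the 10 genes and named by markers, with *Pecam1* and *Cdh5* rather than *Flt1* required for endothelial cells. Each of the 16 genes of the marker pairs stood highest in its own type in both samples. For replicates 1 and 2, the retained types were SGCs (3629 and 3408 cells), myelinating Schwann cells (1626 and 1664), non-myelinating Schwann cells (568 and 632), neurons (55 and 54), endothelial cells (195 and 238), mural cells, which surround vessels (386 and 322), fibroblasts (528 and 760) and macrophages (194 and 159), and 1972 retained cells stayed unnamed. Of the barcodes called as cells, 134 occurred in both samples. In 59 of these pairs the UMI totals were more than 100-fold apart, the deeper being a neuron and the shallower lying in a cluster of 425 shallow droplets with neuronal markers (median 831 UMIs), which was removed. Results are therefore also given, where they change, with those droplets counted as neurons and without the shared barcodes. UMIs were summed per sample and type, and each level is in CPM, that is UMIs scaled to a common profile total, after TMM normalization, with n = 2 samples throughout.

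The receptors *Flt1*, *Kdr*, *Tek* and *Tie1* stood highest in endothelial cells, the only type in which all 4 were above 100 CPM in both samples. Of *Flt1*, replicate 1 held 3147 CPM and replicate 2 held 3242 CPM. The next type, mural cells, held 13.1 and 21.3 CPM, and no other type passed 4.02 CPM in either sample. The log2 fold change of endothelial cells over the mean of the other 7 types was 10.37 (SE 0.13, edgeR adjusted p = 3.18e-20) and over mural cells 7.55 (SE 0.26, edgeR adjusted p = 9.80e-14; 21.2% of all genes higher). *Kdr* was at 347 and 361 CPM in endothelial cells, 8.02 above the mean of the other types on the log2 scale (SE 0.13, edgeR adjusted p = 6.94e-19). *Tek*, the angiopoietin receptor, was at 251 and 304 CPM there and at most 2.20 CPM in any other type and sample (log2 fold change 8.21, SE 0.12, edgeR adjusted p = 1.26e-19). *Tie1* was at 197.6 and 199.5 CPM there and at most 2.10 CPM elsewhere (log2 fold change 8.81, SE 0.14, edgeR adjusted p = 4.28e-19). For each of these genes the endothelial values of both samples lay above every value of the other types. All 4 stayed above the mean of the other types without either replicate, with 54 cells drawn per profile and with the RNA of empty droplets subtracted.

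**Figure D1:**
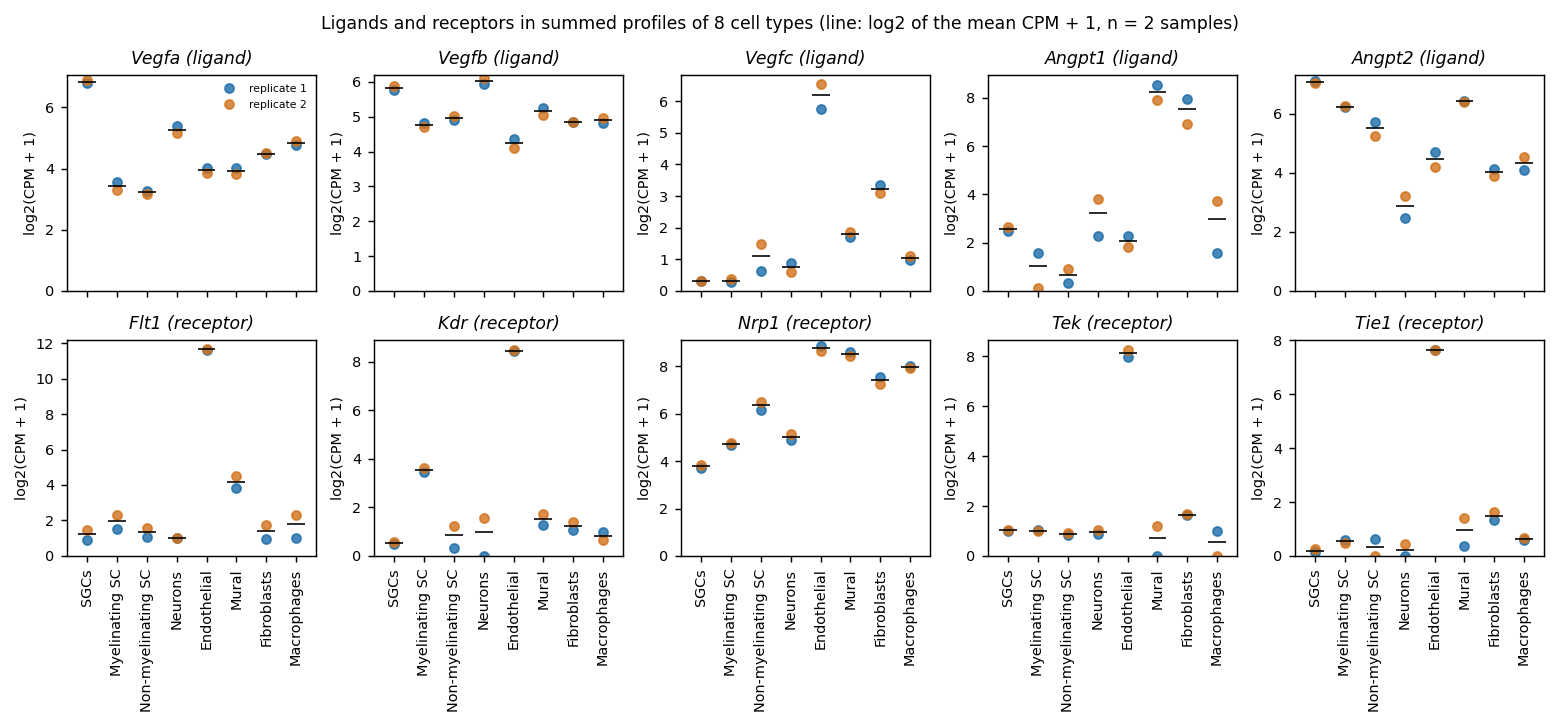
Level of each ligand and receptor, as log2(CPM + 1), in the summed profiles of 8 cell types (x axis, SC: Schwann cells), with 1 point per sample and a line at the mean of both. *Flt1*, *Kdr*, *Tek* and *Tie1* peak in endothelial cells, *Vegfa* in SGCs, *Angpt1* in mural cells and fibroblasts, while *Nrp1* is spread over endothelial cells, mural cells, macrophages and fibroblasts.

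Single endothelial cells carried these receptors together. At their full depth (medians of 16191 and 15138 UMIs per cell), 136 of 195 endothelial cells in replicate 1 (69.7%) and 169 of 238 in replicate 2 (71.0%) held at least 1 UMI of each of *Flt1*, *Kdr*, *Tek* and *Tie1*, and 2 and 8 cells held none of them. These cells include a cluster of 7 and 33 shallow cells (median 980.5 UMIs) whose leading genes include the neuronal *Calca*, *Nefl* and *Prph*. They also include a cluster of 34 cells with a median doublet score of 0.388, whose leading genes include the SGC marker *Ptprz1*. Both clusters were left out only where endothelial clusters were compared. A further cluster, endothelial cluster 2 (49 and 55 cells), had the mural markers *Rgs5* and *Myh11* among its leading genes and was kept throughout. The part of mural RNA in its levels was not tested. Cells differ in depth, so each was also thinned to 1000 UMIs, which left out 20 of the 433 endothelial cells. At that depth *Flt1* was still found in 90.2% of endothelial cells of replicate 1 (exact 95% interval 85.1% to 94.0%) and 87.3% of replicate 2 (82.1% to 91.4%). The corresponding shares were 25.4% and 29.5% for *Kdr*, 23.8% and 29.5% for *Tek*, and 20.7% and 20.5% for *Tie1*. These intervals cover counting error only. In SGCs at the same depth (median before thinning 15014 UMIs per cell), the share was 0.185% for *Flt1*, 0.0426% for *Kdr*, 0.0569% for *Tek* and 0.0142% for *Tie1*, over both samples.

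The 4 endothelial receptor genes lie on different parts of chromosomes 4 and 5 of GRCm38: *Flt1* on the minus strand at chr5:147561604-147726011 (30 exons in the transcript with the longest coding sequence), *Kdr* on the minus strand at chr5:75932827-75978458 (30 exons), *Tek* on the plus strand at chr4:94739289-94874976 (23 exons) and *Tie1* on the minus strand at chr4:118471191-118490061 (23 exons). Because they share 1 cell type, the bases before their RefSeq start sites (GRCm38.p6) are shown, 5′ to 3′ on each gene's strand, as far as GENCODE M21 annotates no exon of the gene there. Capitals mark AGGAAG or its reverse complement CTTCCT, the core letters bound by ETS factors, a family known to act in endothelial genes.
*Flt1*, chr5:147726012-147726261: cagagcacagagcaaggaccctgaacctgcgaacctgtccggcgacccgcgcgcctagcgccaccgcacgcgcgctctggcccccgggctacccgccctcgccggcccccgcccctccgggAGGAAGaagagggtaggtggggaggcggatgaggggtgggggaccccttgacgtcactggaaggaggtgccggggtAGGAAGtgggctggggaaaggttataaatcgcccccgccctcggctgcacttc
*Kdr*, chr5:75978459-75978705: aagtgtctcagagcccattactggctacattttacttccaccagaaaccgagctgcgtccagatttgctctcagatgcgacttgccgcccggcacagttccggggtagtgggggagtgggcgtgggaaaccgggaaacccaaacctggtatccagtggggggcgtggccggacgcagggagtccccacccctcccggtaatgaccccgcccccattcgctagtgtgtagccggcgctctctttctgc
*Tek*, chr4:94739039-94739288: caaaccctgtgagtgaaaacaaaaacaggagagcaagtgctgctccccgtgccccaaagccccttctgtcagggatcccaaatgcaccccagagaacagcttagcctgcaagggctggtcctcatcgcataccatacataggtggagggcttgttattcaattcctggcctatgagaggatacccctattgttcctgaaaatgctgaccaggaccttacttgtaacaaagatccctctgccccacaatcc
*Tie1*, chr4:118490062-118490099: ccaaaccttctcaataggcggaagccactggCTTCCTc
In the 250 bases before the start, *Flt1* held 2 matches, *Tie1* and *Nrp1* 1 each, and *Kdr* and *Tek* none, while 29.5% of all 32851 promoters of the same length held at least 1. The letters ACGTG or GCGTG, the core of the hypoxia response element (both strands, 38.6% of promoters), were matched in *Flt1*, *Kdr*, *Nrp1* and *Vegfb*, not in *Tek*, *Tie1* or *Vegfc*, and in 1 of the 2 RefSeq promoters of *Vegfa*. The GATA letters AGATAA (both strands, 9.99% of promoters) occurred once, in the other *Vegfa* promoter. *Angpt1* and *Angpt2* had no entry among these promoters and were not searched. These matches describe letters in a window and do not show binding.

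Outside endothelial cells, low but unequal levels of 2 VEGF receptors were measured. *Kdr* was at 9.87 CPM (95 UMIs) in replicate 1 and 11.5 CPM (116 UMIs) in replicate 2 of myelinating Schwann cells, above the mean of the other types (log2 fold change 2.25, SE 0.24, edgeR adjusted p = 4.36e-07) and above mural cells, the next type (log2 fold change 2.54, SE 0.45, edgeR adjusted p = 1.38e-04; 22.8% of all genes higher). Summing all other cells into 1 profile weights types by their UMIs, without an average on the log scale. The direction then turned (log2 fold change -0.63). The value was 2.08 without replicate 1 and 3.37 without replicate 2. The UMIs were spread over 77 of 1626 and 101 of 1664 cells, with no more than 3 in a cell. After thinning to 1000 UMIs, *Kdr* was found in 1.196% of myelinating Schwann cells (exact 95% interval 0.852% to 1.63%; median depth 5402 UMIs), against 0.0426% of SGCs. Empty droplets could account for at most 0.539 CPM. Beside the *Kdr* UMIs, myelinating Schwann cells held 18 and 39 UMIs of *Flt1*, 18 and 19 of *Pecam1* and 10 and 10 of *Tek*. For every *Kdr* UMI there were 0.189 and 0.336 *Flt1* UMIs in these cells, 9.07 and 8.97 in endothelial cells, and 6.06 and 5.26 in empty droplets. The part of endothelial RNA in the *Kdr* level was not tested. *Flt1* in mural cells was above the mean of the other types (log2 fold change 1.74, SE 0.31, edgeR adjusted p = 1.59e-04), with 46 and 65 UMIs, of which 1 cell held 9 and 26. Mural cells held 4 and 8 UMIs of *Pecam1*. The part of endothelial RNA in this result was not tested. Of the *Flt1* UMIs, 17 and 37 lay in cells with 5 and 7 UMIs of *Kdr* in all, and 29 and 28 in a cluster of 48 mural cells without any of *Kdr*, described further on. Of these 48 cells, 46 were removed at a resolution of 1.2 and with 20 principal components. The log2 fold change was then 0.88 (edgeR adjusted p = 0.101) and -0.10 (edgeR adjusted p = 0.953), and with equal numbers of cells per profile it was 1.37 (edgeR adjusted p = 0.248).

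*Nrp1* (chr8:128358604-128503363, plus strand, 17 exons) was the 1 receptor carried by several types. It was at 470 and 403 CPM in endothelial cells, 389.6 and 343.9 CPM in mural cells, 261 and 241 CPM in macrophages and 187 and 154 CPM in fibroblasts. Both endothelial samples lay above both mural samples, but the difference missed the threshold (log2 fold change 0.25, SE 0.12, edgeR adjusted p = 0.105). It passed at a resolution of 1.2 (0.56, edgeR adjusted p = 0.00143), with 20 principal components (0.58, edgeR adjusted p = 0.00196) and with one UMI cutoff for all types (0.27, edgeR adjusted p = 0.0406). The endothelial cells include the cluster with *Rgs5* and *Myh11* among its leading genes, and the part of mural RNA in the endothelial level was not tested. Mural cells exceeded macrophages (log2 fold change 0.55, SE 0.13, edgeR adjusted p = 0.00152; 24.2% of all genes higher) and macrophages exceeded fibroblasts (log2 fold change 0.57, SE 0.13, edgeR adjusted p = 0.00102; 22.9% higher). In non-myelinating Schwann cells it was at 71.1 and 90.6 CPM. Neurons (28.8 and 34.2 CPM), myelinating Schwann cells (25.0 and 26.0 CPM) and SGCs (12.3 and 13.3 CPM) were lowest. Each of the 4 leading types exceeded the mean of the other types, from 2.54 (SE 0.08) in endothelial cells and 2.26 (SE 0.08) in mural cells to 1.64 (SE 0.10) in macrophages and 0.99 (SE 0.09) in fibroblasts on the log2 scale. Thinned to 1000 UMIs, 31.5% of endothelial cells, 29.97% of mural cells and 19.0% of macrophages held a *Nrp1* UMI.

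Counting over the whole set, 6 of the 10 genes were higher in endothelial cells than the mean over the other types, among 26.5% of all 17885 genes tested, and they were all 5 receptors and the ligand *Vegfc*. *Vegfa*, *Vegfb* and *Angpt2* were lower there (24.8% of all genes), and *Angpt1* was not called. In SGCs the ligands *Vegfa*, *Vegfb* and *Angpt2* were higher (33.1% of all genes) and all 5 receptors and *Vegfc* lower (23.2%). In each type but endothelial cells, the mean of the others includes the high endothelial receptor values. For *Tek*, only endothelial cells (mean 278 CPM) and fibroblasts (2.15 CPM) had a higher mean than SGCs (1.03 CPM). No difference in *Tek* between SGCs and the types below them was called. Neurons showed *Vegfa* and *Vegfb* higher (37.2% of all genes), with 7 members lower, all 5 receptors among them (30.7%). Mural cells had 4 members higher, *Angpt1*, *Angpt2*, *Flt1* and *Nrp1* (21.9% of all genes), and 2 lower (19.3%). Fibroblasts had 4 higher, *Angpt1*, *Vegfc*, *Nrp1* and *Tie1* (26.7%), and 3 lower (20.7%), and *Tie1* turned where other cells were summed or drawn in equal numbers. Myelinating Schwann cells had *Angpt2* and *Kdr* higher (26.7%) and 7 members lower (23.7%). Non-myelinating Schwann cells had *Angpt2* higher (18.6%) and 4 lower (17.5%), and macrophages *Nrp1* and *Vegfa* higher (23.2%) and *Angpt2* lower (26.2%). Calls in a given direction were thus made for 17.5% to 37.2% of all genes tested, and the counts of members are to be read against these shares.

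**Figure D2:**
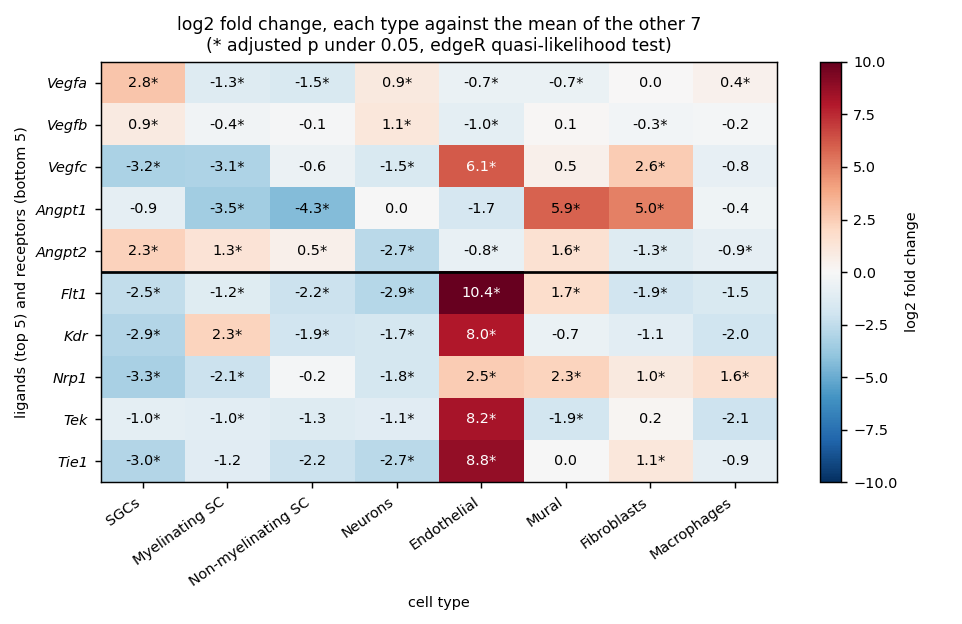
Log2 fold change of each ligand (upper rows) and receptor (lower rows) in each cell type against the mean of the other 7 types (columns, SC: Schwann cells), from edgeR, with asterisks where the adjusted p was under 0.05. The endothelial column holds the highest values, 10.4 for *Flt1* and 8.0 to 8.8 for *Kdr*, *Tek* and *Tie1*, and among the ligands the highest values are 6.1 for *Vegfc* in endothelial cells and 5.9 for *Angpt1* in mural cells.

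Among the ligands, *Vegfa* (chr17:46016993-46032369, minus strand, 8 exons) was led by SGCs. Its level there was 109 and 117 CPM in the 2 replicates, from 5552 and 5983 UMIs in 2062 and 2114 cells. Neurons came next with 40.5 and 34.6 CPM, then macrophages with 26.5 and 28.7 CPM and fibroblasts with 21.1 and 21.5 CPM, which did not differ past the threshold (edgeR adjusted p = 0.0635). The remaining types lay between 8.09 and 15.3 CPM, with non-myelinating Schwann cells lowest. SGCs exceeded the mean of the other types by 2.76 (SE 0.06, edgeR adjusted p = 4.48e-16), and SGCs exceeded neurons by 1.59 (SE 0.10, edgeR adjusted p = 1.08e-10; 32% of all genes higher) on the log2 scale. Macrophages exceeded the mean of the other types by 0.43 (edgeR adjusted p = 0.0176; 23.2% of all genes higher) from 54 and 50 UMIs, of which 3 cells held 44.4% and 40%, and this turned to -1.21 with all other cells summed. In empty droplets *Vegfa* stood at 122 and 106 CPM, near its level in SGCs, and their RNA could account for at most 2.84 CPM in SGCs and 4.92 CPM in non-myelinating Schwann cells, where the measured level was 8.56 and 8.09 CPM. After thinning, 8.32% and 9.22% of SGCs held a UMI of *Vegfa*, against 0.84% of non-myelinating Schwann cells.

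*Vegfb* (chr19:6982473-6987651, minus strand, 7 exons), a ligand of VEGFR1, was the most evenly spread. It was at 60.6 and 68.0 CPM in neurons and at 53.4 and 58.1 CPM in SGCs. The other 6 types lay between 16.3 CPM in endothelial cells and 36.9 CPM in mural cells. Neurons and SGCs did not differ beyond the threshold (log2 fold change 0.20, SE 0.09, edgeR adjusted p = 0.0638; 34.2% of all genes higher), while SGCs exceeded mural cells (log2 fold change 0.69, SE 0.11, edgeR adjusted p = 5.13e-05; 26.1% of all genes higher). The neuronal value rests on 109 cells, and in replicate 2 a single neuron held 12.1% of its *Vegfb* UMIs.

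*Vegfc* (chr8:54077606-54187096, plus strand, 7 exons) was an endothelial ligand. Its level was 53.4 and 91.3 CPM in endothelial cells, from 206 and 403 UMIs, and 9.21 and 7.55 CPM in fibroblasts. Every other type stayed at or below 2.63 CPM. Endothelial cells exceeded fibroblasts by 3.13 on the log2 scale (SE 0.23, edgeR adjusted p = 3.01e-09; 23.5% of all genes higher), and fibroblasts exceeded mural cells by 1.76 (SE 0.41, edgeR adjusted p = 0.00228; 20.9% of all genes higher). The UMIs came from few cells: 37 of 195 and 52 of 238 endothelial cells held any, and 3 cells held 31.1% and 39.0% of them.

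*Angpt1* (chr15:42424723-42676977, minus strand, 9 exons) was a ligand of mural cells and fibroblasts. It was at 372 and 239 CPM in mural cells and at 246 and 121 CPM in fibroblasts, so replicate 1 was the higher in both. All other types lay at or below 13.0 CPM in either sample. Mural cells exceeded the mean of the other types by 5.89 (SE 0.27, edgeR adjusted p = 2.75e-12) and fibroblasts by 5.03 (SE 0.27, edgeR adjusted p = 2.39e-11) on the log2 scale. Mural cells and fibroblasts overlapped, and their difference missed the threshold (log2 fold change 0.75, SE 0.30, edgeR adjusted p = 0.0578; 17.7% of all genes higher). It passed with the replicate as a block (log2 fold change 0.77, edgeR adjusted p = 0.0246). A predicted gene on the opposite strand, *Gm17473*, overlaps *Angpt1* and had 15.2 and 3.31 CPM without TMM in fibroblasts and 5.22 and 11.6 CPM in mural cells; whether counting used the strand is not given in the sources used here, and without it reads of the overlapping pair cannot be told apart.

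Of the 1310 and 729 *Angpt1* UMIs of mural cells, 698 and 106 lay in a cluster of 48 cells. In this mural cluster 4 (26 and 22 cells), led by *Nts*, *Tnc* and *Ptx3*, the level of *Angpt1* was at 2354 and 395 CPM without TMM, and in replicate 1 a single cell held 21.5% of its 698 UMIs. Without that cluster, mural cells were at 194 and 233 CPM and fibroblasts at 255 and 127 CPM on the same scale, and the samples of both types overlapped. The cluster carried the mural genes *Rgs5* (4536 and 7471 CPM) and *Notch3* (644 and 724 CPM) and also the fibroblast gene *Col1a1* (506 and 410 CPM, against 7.93 and 14.2 CPM in the other mural cells), whereas *Pdgfra*, the other gene of the fibroblast pair, was at 13.5 and 0 CPM. Its leading genes also included the fibroblast marker *Mfap5* and *Sfrp4*, a leading gene of a fibroblast cluster. Its median doublet score was 0.137, against 0.0187 to 0.0383 in the other mural clusters compared. The part of fibroblast RNA in its levels was not tested. At a resolution of 1.2 or with 20 principal components, 46 of its 48 cells fell into a cluster with markers of both types, which was removed, and the difference between mural cells and fibroblasts in *Angpt1* was then -0.032 and -0.038 on the log2 scale (edgeR adjusted p = 0.960 and 0.958). In these clusterings a further cluster of shallow cells was also counted as mural (332 cells with a median of 1038.5 UMIs, and 327 cells with a median of 1121 UMIs), and the part of either change in the values was not tested.

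**Figure D3:**
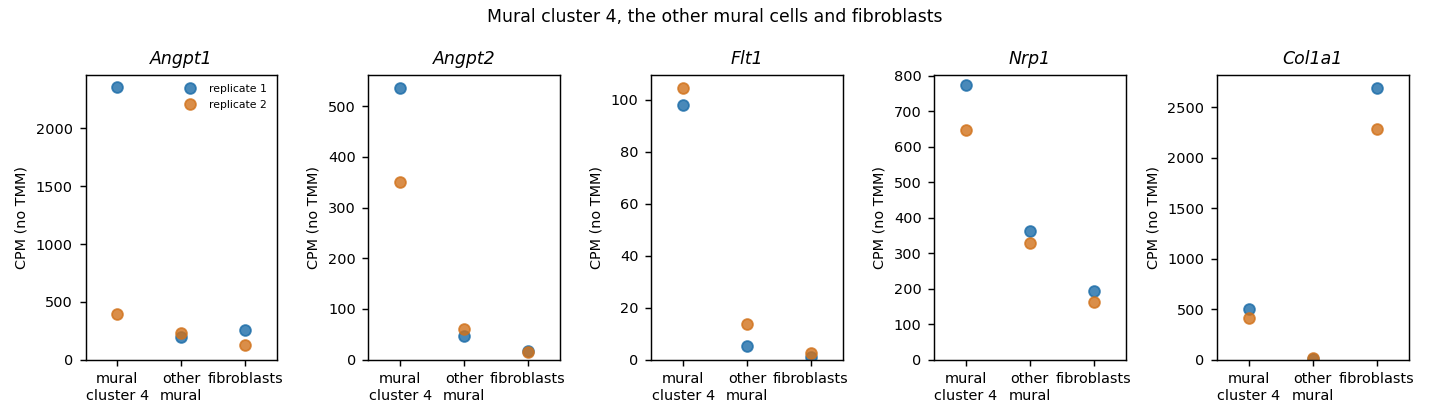
CPM without TMM (y axes, from 0) of *Angpt1*, *Angpt2*, *Flt1*, *Nrp1* and the fibroblast gene *Col1a1* in mural cluster 4, the other mural cells and fibroblasts, with 1 point per sample. Mural cluster 4 is above the other mural cells for each gene, and without it the mural cells and fibroblasts overlap in *Angpt1*.

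*Angpt2* (chr8:18690263-18741562, minus strand, 9 exons) was highest in glia and mural cells rather than in endothelium. SGCs were at 136.3 and 129.9 CPM, mural cells at 86.4 and 83.7 CPM, myelinating Schwann cells at 74.4 and 75.1 CPM and non-myelinating Schwann cells at 52.4 and 37.3 CPM. Endothelial cells held 25.1 and 17.2 CPM, and neurons were lowest with 4.57 and 8.25 CPM. SGCs exceeded the mean of the other types by 2.29 (SE 0.09, edgeR adjusted p = 4.62e-13), and SGCs exceeded mural cells by 0.65 (SE 0.14, edgeR adjusted p = 9.83e-04; 26.1% of all genes higher) on the log2 scale. The latter difference lost the threshold when 54 cells were drawn per profile (log2 fold change 0.50, edgeR adjusted p = 0.325). Non-myelinating Schwann cells exceeded the mean of the other types (log2 fold change 0.49, edgeR adjusted p = 0.0111, with 18.6% of all genes higher). This missed the threshold with 54 cells per profile (0.77, edgeR adjusted p = 0.252) and with one UMI cutoff for all types (0.078, edgeR adjusted p = 0.657). That cutoff removed the deep neurons, lowest in *Angpt2*, so the mean was then over fewer types. The log2 fold change turned to -0.92 with all other cells summed, and was 0.21 without replicate 1 and 0.76 without replicate 2. The samples of mural and myelinating Schwann cells did not overlap, but the difference missed the threshold (log2 fold change 0.19, SE 0.15, edgeR adjusted p = 0.343; 23.3% of all genes higher). Of the 304 and 255 *Angpt2* UMIs of mural cells, 159 and 94 lay in mural cluster 4. Without that cluster, mural cells were at 46.0 and 60.2 CPM without TMM. Myelinating Schwann cells were higher on that scale, at 73.6 and 74.2 CPM. After thinning, 11.05% and 11.2% of SGCs held a UMI of it, against 0.92% of neurons, which are deeper before thinning. *Angpt2* lies opposite to *Mcph1*, whose levels without TMM ranged only from 7.87 CPM (non-myelinating Schwann cells) to 24.0 CPM (neurons) and were 10.8 and 9.96 CPM in SGCs.

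Clusters within SGCs differed strongly in *Vegfa*. These clusters were formed without the 10 genes, but their comparison was added after their values had been seen. *Vegfa* was at 28.4 and 28.5 CPM in SGC cluster 2, led by *Pou3f1*, *Ank3* and *Kcna1*, at 109 and 103 CPM in cluster 0, led by *Cxcl10* and *Atf3*, at 155 and 163 CPM in cluster 3, led by *Hes5*, *Chchd10* and *Mt3*, and at 174.9 and 200.02 CPM in cluster 7, led by *Gm42418* and *AY036118*. Set against the other SGC clusters, the log2 fold change was -2.37 in cluster 2 (SE 0.09, edgeR adjusted p = 1.04e-21; 14.8% of 15795 genes lower), 0.94 in cluster 3 (SE 0.07, edgeR adjusted p = 4.15e-13; 15% higher) and 1.26 in cluster 7 (SE 0.08, edgeR adjusted p = 2.71e-15; 10.8% higher). *Vegfb* moved less, with -0.78 in cluster 2 (SE 0.10) and 0.84 in cluster 3 (SE 0.08). *Angpt2* stayed between 126 and 154 CPM in all 4 clusters and was called in none of them. The median depth per cell was 14966 UMIs in cluster 0, 10567 in cluster 2, 19575 in cluster 3 and 14772 in cluster 7. The part of depth in these differences was not tested. Of the genes that led cluster 2, *Pou3f1* was also among the 10 leading genes of the larger cluster of myelinating Schwann cells, and *Ank3* and *Kcna1* among those of non-myelinating Schwann cells. The 8 SGC markers summed to 7543 and 7434 CPM without TMM in cluster 2 and to between 13067 and 18478 CPM in the other SGC clusters. The 10 markers of myelinating Schwann cells summed to 1589.9 and 1766 CPM in cluster 2 and to between 889.96 and 1091 CPM in the others, while the 7 of non-myelinating Schwann cells summed to 5404 and 5819.7 CPM, against 5899 to 7299 CPM. None of these markers was at 0 in any SGC cluster. *Vegfa* was at 8.09 to 10.9 CPM in Schwann cells, and the part of Schwann cell RNA in the low value of cluster 2 was not tested.

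Endothelial clusters differed in the ligands they carried. Cluster 0 held the highest level of the arterial markers *Gja4*, *Bmx*, *Hey1* and *Efnb2* and is called arterial-like. The remaining arterial marker followed, *Gja5*, was counted as highest in no endothelial cluster, where a minimum share of cells with a UMI was also required. Cluster 0 also held the highest level of the capillary marker *Cxcl12*. *Vegfc* was at 123 and 225 CPM there and at most 16.8 CPM in clusters 1 and 2 (2.89 on the log2 scale over the other clusters, SE 0.23, edgeR adjusted p = 3.24e-12; 6.13% of all genes higher). Cluster 3 (25 and 21 cells) held the highest level of the venous markers *Nr2f2*, *Ackr1*, *Selp*, *Vwf* and *Slco2a1* and of the lymphatic markers *Prox1*, *Mmrn1*, *Lyve1* and *Reln*, and is left unnamed. It carried *Vegfc* at 58.3 and 93.4 CPM (log2 fold change 1.22, SE 0.33) and *Angpt2* at 72.9 and 53.8 CPM, against 0 to 19.3 CPM in the other clusters (log2 fold change 2.503, SE 0.41, edgeR adjusted p = 1.28e-05; 7.52% of all genes higher), a value that was 4.97 without replicate 1, where 1 other cluster held no UMI. Its VEGF receptors were lower, *Flt1* at 1213 and 1107 CPM against 2732 to 4115 CPM elsewhere (log2 fold change -1.60, SE 0.16) and *Kdr* at 277 and 277 CPM against 313 to 491 CPM (log2 fold change -0.48, SE 0.12; 5.73% of all genes lower). *Tek* and *Tie1* were not called in it. The highest *Flt1* and *Kdr* values of the compared clusters were in cluster 2, whose leading genes include the mural *Rgs5* and *Myh11*. The part of mural RNA in those values was not tested.

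**Figure D4:**
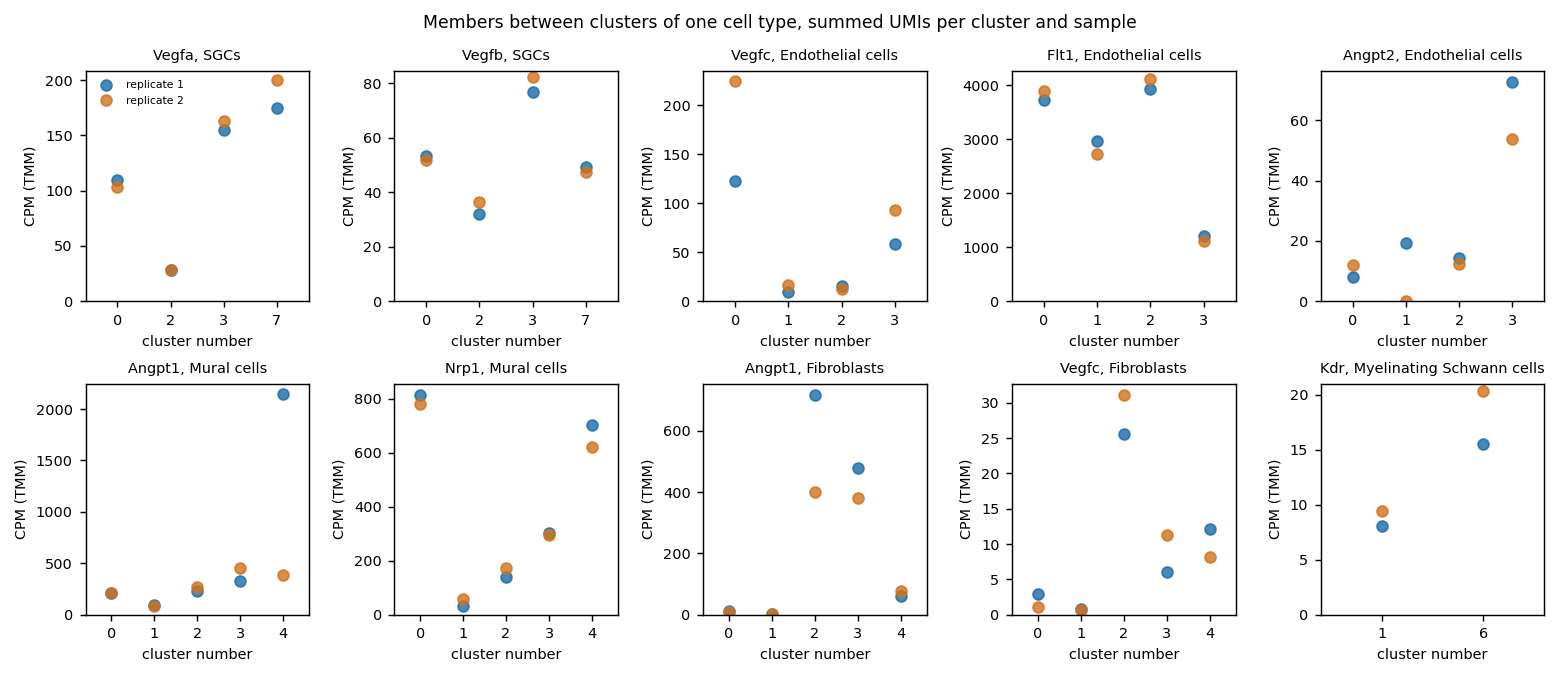
CPM after TMM (y axes, from 0) of selected ligands and receptors in clusters of 1 cell type (x axes, cluster number), with 1 point per sample. *Vegfa* is lowest in SGC cluster 2, *Vegfc* highest in endothelial cluster 0, *Nrp1* high in mural clusters 0 and 4 and low in cluster 1, and *Angpt1* of fibroblasts concentrated in clusters 2 and 3.

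Within mural cells, *Nrp1* separated the clusters. It was at 817 and 782 CPM in cluster 0, which is pericyte-like by *Kcnj8*, *Abcc9* and *Vtn*, and at 32.0 and 56.0 CPM in cluster 1, which is smooth-muscle-like by *Myh11*, *Acta2* and *Tagln*. Against the mean of the other mural clusters these were 2.06 (SE 0.11, edgeR adjusted p = 3.73e-17; 7.68% of all genes higher) and -3.19 (SE 0.19, edgeR adjusted p = 3.40e-16; 5.88% lower) on the log2 scale. The remaining pericyte markers followed were highest elsewhere, *Ndufa4l2* in cluster 2 and *Higd1b* in cluster 3. So were the remaining smooth muscle markers, *Des* in cluster 3 and *Cnn1* in cluster 4. *Angpt1* was also lower in cluster 1 than in the mean of the other mural clusters, at 89.0 and 87.8 CPM (log2 fold change -2.19, SE 0.37). Its level in the pericyte-like cluster was 213 and 209 CPM. Mural cluster 4 was higher in *Angpt2* (488 and 338 CPM, log2 fold change 3.23, SE 0.21), *Flt1* (89.0 and 101 CPM, 4.05, SE 0.51), *Vegfa* (36.8 and 35.9 CPM, 2.33, SE 0.43) and *Angpt1* (2.65, SE 0.26), among 8.34% of all genes. The level of *Vegfa* rests on 12 and 10 UMIs, of which 3 cells held 58.3% and 60%. The value for *Angpt1* was 0.81 without replicate 1. The 29 and 28 *Flt1* UMIs of mural cluster 4 came without any of *Kdr*, *Tek*, *Tie1* or *Cdh5* and with 1 and 0 of *Pecam1*.

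Fibroblast clusters differed mainly in *Angpt1*. It was at 718 and 402 CPM in cluster 2, led by *Sfrp2*, *Clec3b* and *Col14a1*, and at 478 and 379 CPM in cluster 3, led by *Slc26a7*. Cluster 4, led by *Ptgds*, held 59.1 and 76.7 CPM, and clusters 0 and 1 held 1.25 to 11.5 CPM. The log2 fold changes were 4.40 in cluster 2 (SE 0.31, edgeR adjusted p = 8.47e-15; 11.5% of all genes higher) and 3.91 in cluster 3 (SE 0.34, edgeR adjusted p = 3.71e-12; 9.5% higher). *Vegfc* followed in cluster 2, at 25.6 and 31.2 CPM (log2 fold change 3.14, SE 0.37, edgeR adjusted p = 1.06e-08). In myelinating Schwann cells, *Kdr* was at 15.5 and 20.4 CPM in cluster 6, led by *Spp1* and *Mfap5*, and at 8.09 and 9.47 CPM in cluster 1 (log2 fold change 1.00, SE 0.22, edgeR adjusted p = 0.00198; 2.15% of all genes higher), a comparison also added after the values were seen.

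Of the wider pathway, 4 lists were followed. Of 11 genes that respond to or act beside these receptors in endothelium, 10 were tested and all 10 were higher in endothelial cells, beside 26.5% of all genes, with a median log2 fold change of 7.39. The genes of this list were chosen as endothelial genes, so this count follows from the choice and is no test. They were led by the guidance receptor *Robo4* (153 and 158 CPM, log2 fold change 10.59, SE 0.20), the apelin receptor *Aplnr* (10.47, SE 0.28), the Notch ligand *Dll4* (9.67, SE 0.23) and the proteoglycan *Esm1* (8.23, SE 0.22). Of 7 further ligands, receptors and partners, 5 were higher in fibroblasts and 2 lower, beside 26.7% and 20.7% of all genes. *Svep1*, a matrix protein known to act with TIE1, was at 111 and 114 CPM in fibroblasts (log2 fold change 6.94, SE 0.14), and the phosphatase gene *Ptprb*, whose product acts on TIE2, was lower there (-2.95, SE 0.30), as was the VEGFR3 gene *Flt4* (-2.75, SE 1.09, from 0 and 0.0956 CPM). *Angpt4*, another angiopoietin gene, was at 1.15 and 1.95 CPM (2.28, SE 0.55). Of 12 class 3 semaphorins and plexins, 6 were higher and 4 lower in neurons (beside 37.2% and 30.7% of all genes), and the counts were equal in endothelial cells (26.5% and 24.8%) and in fibroblasts (26.7% and 20.7%), which does not say that they were the same genes. They were led in neurons by *Sema3a* (3.17, SE 0.60) and *Plxna4* (3.00, SE 0.13) on the higher side and *Sema3b* (-2.90, SE 0.12) and *Sema3g* (-2.87, SE 0.32) on the lower. Of 12 genes of the hypoxia pathway, regulators among them, 11 were tested. In endothelial cells 7 were higher and 1 lower (beside 26.5% and 24.8% of all genes), led by the glucose transporter gene *Slc2a1* (461 and 608 CPM, 4.18, SE 0.09), *Epas1* (3.24, SE 0.07), *Egln3* (2.89, SE 0.19) and *Adm* (2.37, SE 0.33), and in SGCs, the type highest in *Vegfa*, 5 were higher and 4 lower (33.1% and 23.2%).

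Genes with the most similar pattern were ranked by Pearson's r of log2(CPM + 1) over the 16 profiles, which share libraries and differ in depth, so r is a description. The 3 nearest were *Ctnnd2* (0.962), *Cdh15* and *Sf3b6* for *Vegfa*, *Gde1* (0.963), *Psmb3* and *Mdh1* for *Vegfb*, *Mecom* (0.986), *Erg* and *Abcb1a* for *Vegfc*, *Cacna1g* (0.958), *Perp* and *Ccl19* for *Angpt1*, and *Hoxb3os* (0.936), *2610027K06Rik* and *Bcas3* for *Angpt2*. For the receptors they were *Depp1* (0.994), *Foxf1* and *Zfp366* for *Flt1*, *Eps8l2* (0.972), *Tead4* and *Plekhs1* for *Kdr*, *Myof* (0.977), *Map2k3* and *Anxa3* for *Nrp1*, *Ccm2l* (0.992), *Dach2* and *Gimap4* for *Tek*, and *Ccm2l* (0.991), *Apol10b* and *Clic5* for *Tie1*.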

How the data were processed

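Single-cell 3′ libraries (10x, v3.1) of both replicates were counted by the authors with Cell Ranger 7.1.0 against mm10 (per the submitters' processing notes), and the deposited values are raw UMI counts per gene and barcode. Strand and intron settings of the counting and the annotation are not given in the sources used here; 32235 of 32285 identifiers were found in GENCODE M21 and 50 were not. Barcodes were called as cells by UMI total and by a test against empty droplets (false discovery rate 0.01, at least 500 UMIs), with more than 300 genes, which gave 8803 and 8759 cells. Cells were clustered with Seurat 5.3.0 and sctransform 0.4.2 (R 4.3.3; 3000 variable genes without the 10 members and the 42 genes of the pathway lists, 30 components, resolution 0.8). A cluster was named from at least 3 markers among its 50 leading genes. Clusters averaging under 1000 genes, led by mitochondrial genes or holding 3 or more markers of more than 1 type, cells above 21.7% mitochondrial UMIs, and cells more than 5 median absolute deviations above their own type's median UMI total were removed; a single cutoff over all types would have removed the deep neurons and was tried as an alternative. Doublet scores came from scanpy 1.11.5; doublet-like cells (12.8% and 13.0% of endothelial cells) were kept, and left out as an alternative.

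UMI counts were summed per replicate and type (1988266 to 55990457 per profile) and tested with edgeR 4.0.16 (quasi-likelihood, TMM, all types in 1 fit, at least 10 counts in 2 profiles), with Benjamini-Hochberg adjustment over 17885 genes and a threshold of 0.05; each type was set against the mean of the other 7 and against the next in order. Clusters within a type were tested likewise over 15795 genes; clusters left out were those with a median doublet score over 0.3 or fewer than 20 cells in a profile. These clusters were formed from the same cells. Shares carry exact Clopper-Pearson 95% intervals. Summed over all retained cells, the replicates differed beyond sampling noise (a chi-square of 13.8 for each degree of freedom, over 21138 genes). This value also takes in differences in the mix of types and between cells. Profiles with one number come from one sample and are thereby paired; over 28 pairs of types their deviations correlated with a median r of 0.0504 (-0.00866 to 0.187), 4 of them over 0.1. Because the number of animals per sample is not stated, p-values measure the spread between these samples. In data simulated for the endothelial comparison (17646 genes), 93% of 2-fold and 100% of 4-fold changes were recovered and 2.39% of unchanged genes were called. All members were named whatever their values, with at most 4 genes of each of the 4 lists (the largest changes among those called, in the type with most calls) and the 3 genes most correlated with each member. The members and lists were chosen with earlier results of these data known. DESeq2 1.42.0, other clusterings, filters and cell sets were alternatives.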

Additional observations from a re-analysis of the deposited data

Results flagged for a closer look

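Some cells entered no comparison between types, and 3 of the genes stood in them above the level of empty droplets and above a floor of 3 counts in both samples. *Vegfb* averaged 77.5 CPM (69.3 and 85.8 CPM, from 28 and 22 UMIs) in the removed cluster of 425 shallow droplets with neuronal markers. *Nrp1* averaged 60.8 CPM (66.8 and 54.8 CPM) in the unnamed cluster led by *Cd74* and *Lyz2*. *Angpt2* averaged 115 CPM (119 and 111 CPM) in the unnamed cluster led by *Pou3f1*.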

How the results depend on the processing

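The replicate block moved 1 call of the results compared, *Angpt1* in mural cells against fibroblasts (0.77 on the log2 scale, as all fold changes here), which also passed without doublet-like cells (0.74) and with 1 UMI cutoff for all types (0.72), and turned at resolution 1.2 (-0.032) and with 20 principal components (-0.038). Those clusterings and the UMI cutoff brought *Nrp1* in endothelial against mural cells past the threshold (0.56, 0.58 and 0.27). *Vegfb* in neurons against SGCs passed at resolution 0.4 (0.34), with log-normalization (0.23), more than 1000 genes per cell (0.24), shallow droplets counted as neurons (0.22) and DESeq2 (0.30). *Angpt2* in SGCs against mural cells lost it with equal numbers of cells (0.50). The cause was not tested.

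All other cells were also summed into 1 profile, which weights types by their UMIs and does not average them on the log scale. In that setting *Angpt2* in mural (-0.0025), myelinating (-0.14) and non-myelinating Schwann cells (-0.92), *Vegfa* in neurons (-0.96) and macrophages (-1.21), *Kdr* in myelinating Schwann cells (-0.63), *Flt1* in mural cells (-3.07) and *Tie1* in fibroblasts (-2.33) turned. *Tie1* in fibroblasts also turned with equal numbers of cells (-2.81) and *Flt1* in mural cells with 20 principal components (-0.10). Without either replicate, which leaves values with no test, the fold changes over the mean of the other types were 7.76 to 9.23 for *Kdr*, 8.80 to 8.95 for *Tek* and 9.14 to 9.57 for *Tie1* in endothelial cells and 5.81 to 6.51 for *Angpt1* in mural cells.

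Counts of all genes called fell with equal, smaller numbers of cells: higher, 2866 endothelial, 2253 fibroblasts, 1995 mural, 1268 myelinating, 1176 non-myelinating and 2205 SGCs, and lower, 1852, 954, 1071, 942, 556 and 1154, with 1822 in macrophages and 3282 in neurons. With other cells summed, 5631 were lower in fibroblasts, 5192 in mural cells, 6589 in myelinating Schwann cells and 6873 in SGCs. List counts moved with equal cells for hypoxia (SGCs 2 higher and 1 lower, endothelial 0 lower), partners (endothelial 0 lower) and semaphorins (endothelial 2 lower), with other cells summed to 2 lower in endothelial cells for hypoxia and partners, and to 2 for partners without doublet-like cells.

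Depth limits shares of cells. Without thinning, and then at 2000 UMIs, they were 95.6% and 95.75% for *Flt1*, 84.8% and 45.75% for *Kdr*, 86.8% and 54.5% for *Nrp1*, 82.0% and 38.5% for *Tek*, 84.5% and 35% for *Tie1* and 20.6% and 8.50% for *Vegfc* in endothelial cells, 57.3% and 30.6% for *Angpt1* in mural cells, 76.7% and 21.1% for *Angpt2* and 59.3% and 15.7% for *Vegfa* in SGCs, and without thinning 87.2% for *Vegfb* in neurons.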
